A study of Mus musculus with 16 samples.

Results

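The 3 genes that encode the peptide hormones of the pancreatic beta cell, Ins1, Ins2 and Iapp, were read by name from the RNA-seq tables of whole islets from the 8 founder strains of the Diversity Outbred mice. They are 3 of the 54146 genes in each table, and all 3 were among the 15204 protein-coding genes that passed the filters for testing. The strains are 129S1_SvImJ (129), A_J (AJ), C57BL/6J (B6), CAST_EiJ (CAST), NOD_ShiLtJ (NOD), NZO_HlLtJ (NZO), PWK_PhJ (PWK) and WSB_EiJ (WSB). Mice of both sexes were sampled at 26 weeks of age, all of them had been fed a high-fat diet, and no group with another diet or age was compared. The 16 deposited samples, one for each strain and sex, hold 91 libraries: 10 of 129, 14 of AJ, 18 of B6, 14 of CAST, 10 of NOD, 4 of NZO (3 female and 1 male), 5 of PWK (1 female and 4 male) and 16 of WSB. A library held between 16928552 and 35196145 expected counts, with a median of 27485367. The labels do not say whether each library came from its own mouse, so the p-values below measure the spread between libraries.

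Insulin lowers blood glucose, and mice, unlike humans, make it from a pair of genes. Ins2 is the ancestral gene, and Ins1 is a retrotransposed copy of it. Iapp encodes islet amyloid polypeptide, or amylin, which is stored in the same granules as insulin and released with it. The transcription of these genes in beta cells depends on factors such as Pdx1, Mafa, Neurod1 and Nkx6-1, and the prohormones are cut and trimmed by Pcsk1, Pcsk2 and Cpe.

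Several properties of the libraries bear on every value. The libraries of 129, NOD, NZO and PWK carry running numbers from 66 to 100 and those of AJ, B6, CAST and WSB numbers from 1 to 65. RNA was extracted and sequenced in 4 waves that the labels do not tie to a library, so a difference between these sets of strains cannot be told apart from one between waves that followed the numbers. In 6 libraries of 129, 4 of WSB and 2 of NOD, 12 in all, the counts of Xist and of Y-linked genes went against the labelled sex. Digestive enzyme genes of acinar cells, the exocrine tissue around the islets, were detected in all libraries, and their summed normalized count (given here, like other large counts, in k for kilo and M for mega) ran from 38.5 k in an AJ library to 15.3 M in a B6 library. In whole islets, fewer beta cells and less RNA per beta cell cannot be told apart.

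In the GENCODE M21 annotation of GRCm38, Ins1 (ENSMUSG00000035804.4) lies on the plus strand of chromosome 19 from 52264297 to 52265476. Ins2 (ENSMUSG00000000215.11) lies on the minus strand of chromosome 7 from 142678656 to 142743381, and Iapp (ENSMUSG00000041681.2) on the plus strand of chromosome 6 from 142298423 to 142303961. The annotation gives Ins1 1 transcript of 1062 bases, Ins2 9 transcripts of 259 to 918 bases and Iapp 2 transcripts of 839 and 294 bases. Because Ins1 is a copy of Ins2, the sequence they share bears on how their reads could be told apart. The longest identical stretch between the annotated Ins1 and Ins2 transcripts is 56 bases, lies within the coding part of Ins1, and reads:

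Ins1 and Ins2, shared coding stretch: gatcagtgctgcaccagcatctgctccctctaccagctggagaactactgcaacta

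Of the 963 windows of 100 bases in the Ins1 transcript, the read length that the effective lengths in the files imply, 0 occurred in an Ins2 transcript with at most 2 mismatches, and the closest 17 windows had 3 mismatches. The same windows differed from every Iapp window by at least 55 bases. The authors' quantification gave Ins1 a length of 1016 bases, so its transcript model differed from the one read here, and the windows of that model were not examined. The deposited expected counts of Ins1 and of Ins2 were not whole numbers in 89 of the 91 libraries, whereas their sum and the count of Iapp were whole in all 91 (within 0.005). The authors' quantification thus divided some reads between the 2 insulin genes, and the division between them is less certain than their sum.

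Because the 3 genes are active in the same cells, the stretch in front of their transcription starts was read for the motifs of beta cell factors. RefSeq windows of GRCm38.p6 were at hand for Ins1 and Iapp. The 250 bases before each start are printed below, with the core of the homeodomain motif, TAAT, and the E box, CANNTG, in capitals on either strand (TAAT on the minus strand reads ATTA).

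Ins1, chr19:52264047-52264296, plus strand: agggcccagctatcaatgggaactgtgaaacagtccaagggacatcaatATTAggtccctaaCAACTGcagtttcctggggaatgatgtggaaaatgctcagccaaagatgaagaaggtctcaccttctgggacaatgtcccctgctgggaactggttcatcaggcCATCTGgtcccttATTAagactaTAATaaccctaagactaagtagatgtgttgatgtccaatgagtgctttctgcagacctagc

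Iapp, chr6:142298175-142298424, plus strand: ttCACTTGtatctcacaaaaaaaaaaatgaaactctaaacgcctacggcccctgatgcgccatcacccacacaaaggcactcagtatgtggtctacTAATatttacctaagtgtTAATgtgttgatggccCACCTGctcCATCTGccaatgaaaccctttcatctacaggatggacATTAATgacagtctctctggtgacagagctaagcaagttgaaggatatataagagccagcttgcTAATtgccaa

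The Ins1 window held TAAT 3 times and CANNTG 2 times, and the Iapp window held them 5 and 3 times. Each window held 1 copy of CATCTG, the form of the E box known from insulin promoters, which begins at position -84 from the transcription start in Ins1 and at -111 in Iapp. CATCTG is one of the CANNTG matches, and 14.4% of the 32851 mouse promoter windows of that length held it, against 54.9% for TAAT and 66.2% for CANNTG, all motifs being sought on both strands. In Iapp 2 of the TAAT matches overlap. The letters TATAA, found in 22.8% of windows, occurred once in each of these, at -63 in Ins1, where it overlaps a TAAT, and at -27 in Iapp. TCAGC, part of the Maf motif, occurred once in Ins1 (46.8% of windows), and TGACG, part of the cAMP element, in neither window (17.8%). They are matches of letters only.

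The transcripts of these 3 genes made up a large part of what was measured in each library. In TPM, a scale per length on which every library has the same sum, the 3 genes together took 42.8% ± 10.3 (SD, n = 91 libraries), between 16.6% and 56.9%. Ins2 alone took 35.1% ± 8.77 and ranked first of all genes in 91 of 91 libraries. Ins1 took 5.67% ± 1.25 and ranked second in 77 libraries, falling to place 12 in 1 B6 library. Iapp took 2.05% ± 0.527 and ranked between place 3 and place 26.

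By strain, the share of the 3 genes ran from 30.4% ± 7.68 in PWK (n = 5) and 31.4% ± 7.65 in NOD (n = 10) to 52.4% ± 2.07 in AJ (n = 14). The libraries of AJ lay closest together, between 48.9% and 55.5%. Those of B6 spread the most, with a lowest library at 16.6%, a median of 45.5% and a highest at 56.9%. The lowest B6 library was also the one with the most acinar RNA of all 91 libraries. Because the share rests on the short length of the transcripts, it was smaller by reads: the 3 genes took 17% ± 4.56 of all expected counts.

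**Figure D1:**
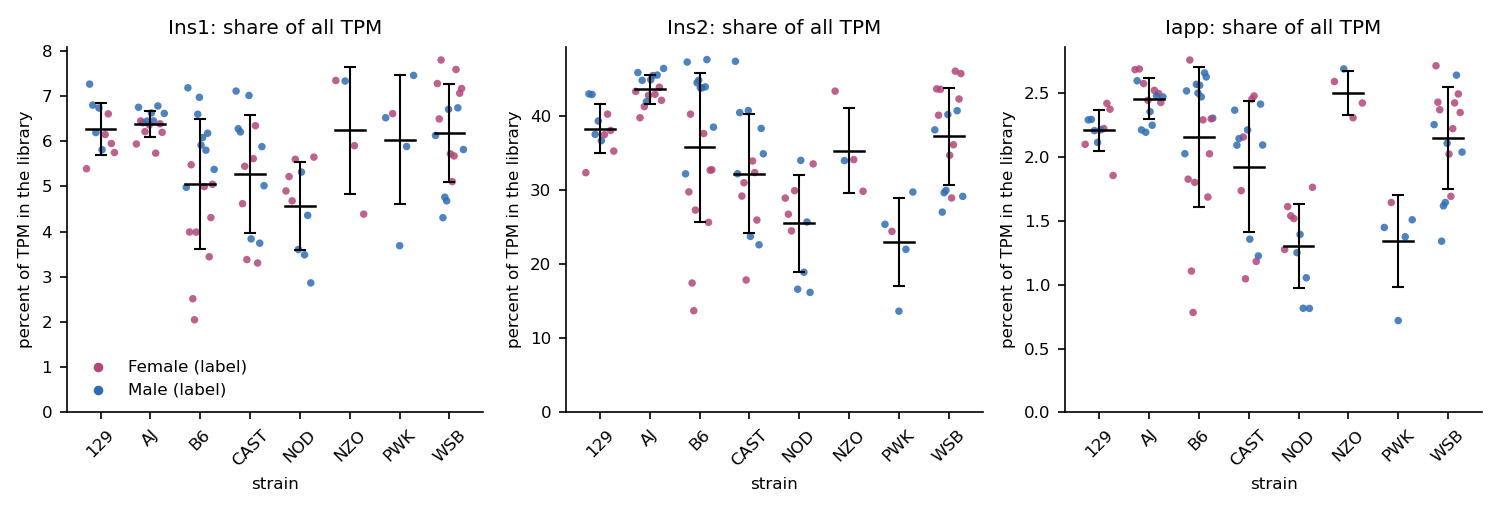
Percent of the TPM of each library taken by Ins1, Ins2 and Iapp (vertical axes) in the 8 strains (horizontal axes). Each point is a library, coloured by its labelled sex, and bars give the mean ± SD. Ins2 lies between 13.7% and 47.6% in the 91 libraries, and the B6 libraries spread most widely while those of AJ lie close together.

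To compare strains without the pull of so abundant genes on the total, expected counts were scaled by the upper quartile of each library. All 3 genes differed between the strains (quasi-likelihood F test of edgeR, p-values adjusted by Benjamini and Hochberg's method over all genes tested): Ins1 with an adjusted p of 0.002856, Ins2 with 1.589e-05 and Iapp with 4.023e-16. With 97.4% of the genes tested passing this test, a strain effect did not set the hormones apart. What varied was its size. Between the highest and the lowest strain, Ins1 spanned 0.51 on the log2 scale (WSB to NOD), Ins2 1.00 (WSB to PWK) and Iapp 1.05 (NZO to PWK), against a median span of 0.87 over all genes tested. A wider span than that of Ins1 was found in 73.5% of those genes, and wider than those of Ins2 and Iapp in 45% and 43.2%. Over the 28 pairs of strains, 6 pairs differed for Ins1, 10 for Ins2 and 16 for Iapp, where 50.3% of all tests of a gene in a pair passed. When the libraries were summed into the 16 samples, the strain effect on Iapp stayed past the threshold while those on Ins1 (adjusted p = 0.592) and Ins2 (adjusted p = 0.186) did not, with spans of 0.57 and 0.99 that were about as wide as before. Within AJ, B6, CAST and WSB alone, Ins1 passed (span 0.36, adjusted p = 0.002176, edgeR) and Ins2 (span 0.19, adjusted p = 0.297) and Iapp (span 0.12, adjusted p = 0.463) did not. Within 129, NOD, NZO and PWK alone, Iapp passed (span 1.05, adjusted p = 0.00014) and Ins1 (span 0.41, adjusted p = 0.675) and Ins2 (span 0.81, adjusted p = 0.387) did not. The share of all genes that passed in these smaller fits is not given here, so these calls cannot be set against it.

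**Figure D2:**
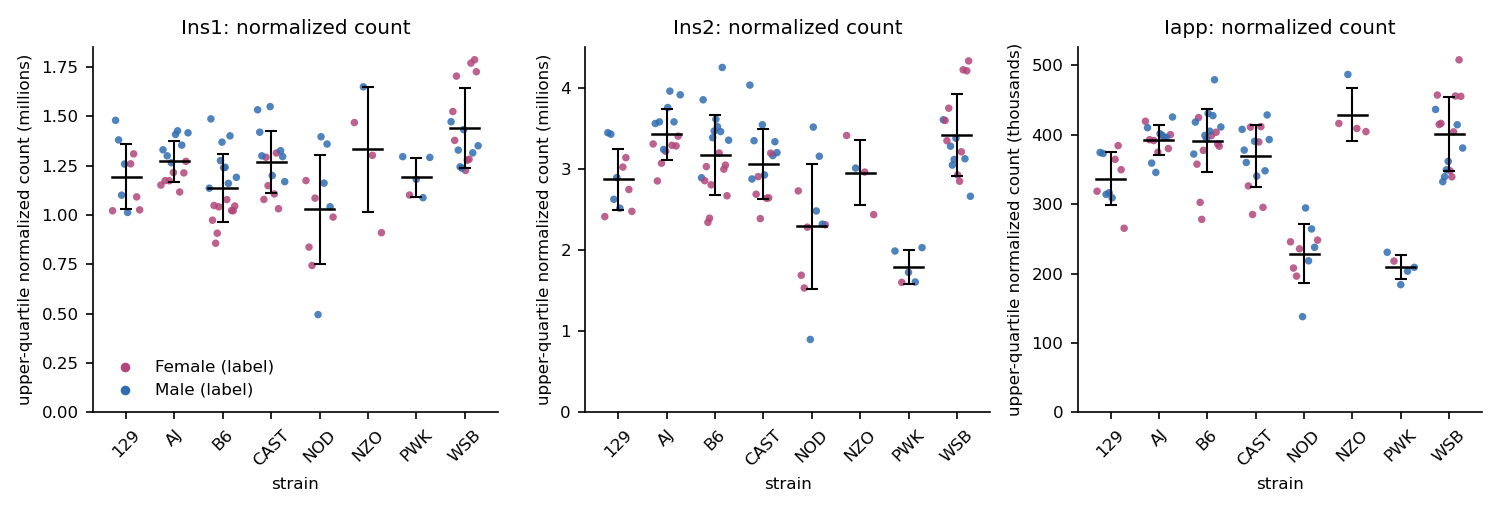
Upper-quartile normalized counts of Ins1 and Ins2 (M) and of Iapp (k) on the vertical axes, by strain. Points are libraries coloured by labelled sex, and bars give the mean ± SD. For Ins2 and Iapp, the 5 PWK libraries lie below all 76 libraries of the 6 strains other than NOD and PWK, whereas for Ins1 they lie among them.

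PWK, a wild-derived strain, had low Ins2 and low Iapp while its Ins1 did not differ from the mean of the other strains beyond its error. The normalized count of Ins2 was 1.99, 2.03, 1.61, 1.73 and 1.60 M in the 5 PWK libraries, and the lowest library of the 6 strains other than PWK and NOD had 2.34 M. Iapp was at 231, 209, 203, 184 and 218 k in the same libraries, against a lowest of 265 k in those 6 strains. No PWK library overlapped them for either gene. Those 6 strains leave out NOD, whose levels of both genes were also low. The share of all genes tested that separate in this way was not computed. Ins1 was at 1.30, 1.29, 1.09, 1.18 and 1.10 M in PWK, and 43 of the 76 libraries of those strains lay below the highest of these.

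Against the mean of the other 7 strains, PWK was lower by -0.80 ± 0.18 (SE) on the log2 scale for Ins2 (adjusted p = 0.0001575, edgeR) and by -0.78 ± 0.11 for Iapp (adjusted p = 6.866e-09). For Ins1 the difference was -0.10 ± 0.14 (adjusted p = 0.574). Thus 2 of the 3 genes passed, where 45.1% of all genes did. In single pairs, Ins2 was lower in PWK than in 6 of 7 strains, the exception being NOD (adjusted p = 0.0812), and Iapp likewise (NOD, adjusted p = 0.345). Among the strains that share its range of library numbers, PWK was lower than 129 by 0.73 ± 0.20 for Ins2 (adjusted p = 0.002413) and 0.70 ± 0.13 for Iapp (adjusted p = 3.193e-06). Lymphocyte markers were summed at 414 to 3885 normalized counts in PWK, with 4 of 9 tested higher than in the other strains, and acinar markers at 0.914 to 9.92 M, with 1 of 9 higher. Of the 5 hormones of other islet cells 3 were higher in PWK and 2 lower (list median 0.89), and their part was not tested. With either sum as a covariate the lower level in PWK stayed past the threshold for Ins2 and Iapp.

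NOD, a strain that spontaneously develops autoimmune diabetes, had lower levels of all 3 hormones relative to the upper quartile of each library. The normalized count of Iapp lay between 138 and 295 k in the 10 NOD libraries, with a median of 237 k, and 9 of the 10 lay below all 76 libraries of the 6 strains other than NOD and PWK. Ins2 spread from 0.9 to 3.52 M, with a median of 2.32 M. Ins1 spread from 0.496 to 1.4 M, with a median of 1.06 M. Of the 10 NOD libraries, 6 lay below all 76 libraries of those strains for Ins2 and 3 for Ins1, and the others overlapped them. How often this holds over all genes tested was not computed. Against the mean of the other 7 strains, NOD was lower by -0.63 ± 0.08 (SE, log2) for Iapp (adjusted p = 6.343e-11, edgeR), by -0.34 ± 0.13 for Ins2 (adjusted p = 0.01398) and by -0.29 ± 0.10 for Ins1 (adjusted p = 0.009952). All 3 genes passed, where 65.3% of all genes did in this strain. With scaling on the beta cell list, 8 of whose 12 genes were themselves lower in NOD, the difference was -0.17 for Iapp (adjusted p = 0.0434), and for Ins1 (0.13, adjusted p = 0.139) and Ins2 (0.04, adjusted p = 0.654) it changed sign and did not pass. With sums of each sample Ins1 (-0.38, adjusted p = 0.174) and Ins2 (-0.42, adjusted p = 0.21) did not pass.

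RNA of immune cells moved with these values. All 9 lymphocyte markers tested were raised in NOD, and Cd3e was not among the genes tested. The summed normalized count of the 10 markers ran from 893 to 44237 in NOD libraries, and 8 of the 10 libraries exceeded the highest of the 6 strains other than NOD and PWK, at 3238. Among the markers listed at 0 TPM in some library of the series were Cd3e, Cd3g, Cd4, Cd8a and Cd79b. All 6 macrophage, all 6 stromal and all 9 acinar markers were higher in NOD as well. The NOD library with the highest lymphocyte sum had the lowest Ins1, Ins2 and Iapp of all 91. Conversely, the libraries with the lowest sums, 893 and 1711, had 3.16 and 3.52 M for Ins2, well inside the range of the other strains, but 264 and 295 k for Iapp, where 3 of the 76 libraries of the other 6 strains lay below the higher of these.

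Within NOD, the lymphocyte sum went with lower levels on the log2 scale, with Pearson's r = -0.849 for Ins1 (Spearman's rho = -0.891), r = -0.846 for Ins2 (rho = -0.939) and r = -0.744 for Iapp (rho = -0.806), each over 10 libraries. These are 3 of 54 relations computed, and their adjusted permutation p-values for r were 0.00549, 0.00549 and 0.0236. Without the 2 libraries farthest from the median sum, r was -0.843, -0.830 and -0.663. The same relation passed in B6, where the sums were 265 to 975 and r was -0.790, -0.780 and -0.711 (adjusted permutation p = 0.000202, 0.000295 and 0.00719, n = 18, with rho = -0.814, -0.754 and -0.548), though for Iapp r was -0.437 there without the 2 farthest libraries. In B6 the sums were 373 to 975 in the 9 labelled females and 265 to 371 in the 9 males. Sex was not held fixed, so this relation cannot be told apart from the difference between the B6 sexes. Also past the threshold were Ins2 and Iapp in CAST (r = -0.613 and -0.677, rho = -0.442 and -0.574, adjusted permutation p for r = 0.0376 and 0.0186), Ins1 in WSB (r = -0.561, rho = -0.565, adjusted permutation p = 0.0428) and Iapp in AJ (r = -0.613, rho = -0.420, adjusted permutation p = 0.0376). By rank none of these passed (adjusted permutation p for rho = 0.165, 0.0679, 0.052 and 0.189 in the same order). For Iapp in AJ r was -0.0265 without the 2 farthest libraries, so that relation rested on them, and in CAST r was -0.410 and -0.384 without them. In 129 none of the 3 passed, nor did the insulin genes in AJ, with r between 0.0374 and 0.366. With the lymphocyte sum as a covariate over all libraries, the difference of NOD from the other strains was 0.04 for Ins1 (adjusted p = 0.912) and 0.09 for Ins2 (adjusted p = 0.801), and -0.35 for Iapp (adjusted p = 0.0364). The calls for Ins1 and Ins2 in NOD also ended without the libraries that went against their sex label (-0.17 and -0.20, adjusted p = 0.142 and 0.167), which leaves out the NOD library with the lowest levels.

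**Figure D3:**
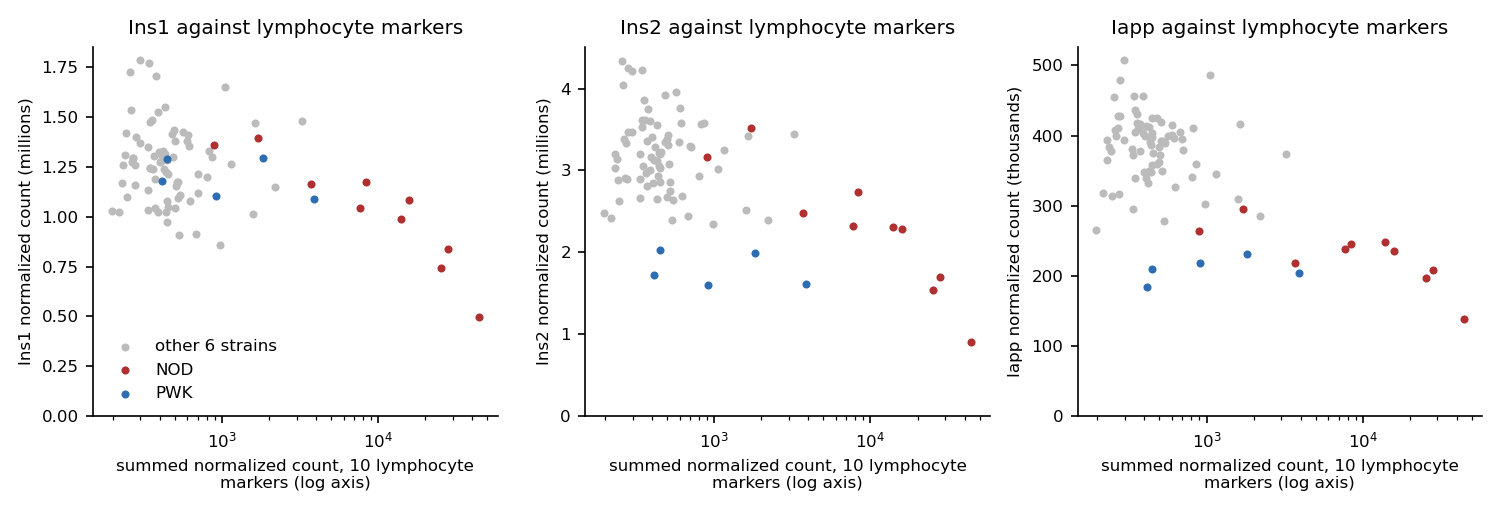
Normalized counts of Ins1 and Ins2 (M) and Iapp (k) on the vertical axes against the summed normalized count of 10 lymphocyte markers (horizontal log axis), 1 point per library, with NOD in red, PWK in blue and the other 6 strains in grey. NOD libraries with few lymphocyte transcripts reach the level of the other strains for Ins1 and Ins2, and PWK libraries lie low for Ins2 and Iapp at sums of 414 to 3885.

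Other strains had higher levels than the mean of the remaining 7, which includes NOD and PWK, the lowest for Ins2 and Iapp. In single pairs, WSB was higher than 3 of 7 strains for Ins1, 2 for Ins2 and 3 for Iapp. AJ was higher than 2 for Ins2 and 3 for Iapp. For Iapp B6 was higher than 3 and CAST than 2. Of all tests of a gene in a pair, 50.3% passed. AJ, B6, CAST and WSB did not differ from each other in pairs for Ins2 or Iapp. WSB was higher than the mean of the other 7 strains for all 3 genes, by 0.29 ± 0.08 (SE, log2) for Ins1 (adjusted p = 0.001906, edgeR), 0.34 ± 0.10 for Ins2 (adjusted p = 0.002665) and 0.30 ± 0.06 for Iapp (adjusted p = 2.201e-05), where 56.2% of all genes passed. In WSB 8 of the 9 lymphocyte markers tested were lower than in the other strains (list median -2.77), as were 5 of 6 macrophage markers (-0.65). Higher in WSB were 3 of 4 endothelial markers (0.33) and 3 of 5 hormones of other islet cells (0.49), and the part of these 3 lists was not tested. With the lymphocyte sum in the model the differences were 0.18 for Ins1 (adjusted p = 0.0798) and 0.20 for Ins2 (adjusted p = 0.119), which did not pass. With total-count scaling Ins1 (0.24, adjusted p = 0.0874) and Iapp (0.24, adjusted p = 0.0632) in WSB did not pass, and with sums of each sample, 16 values in place of 91, none of the 3 did, at 0.27, 0.34 and 0.29 (adjusted p = 0.359, 0.335 and 0.177). AJ was higher for Ins2, by 0.32 ± 0.10 (adjusted p = 0.006192), and for Iapp, by 0.26 ± 0.06 (adjusted p = 0.0003949), where 57% passed. In AJ all 9 acinar, 8 of 9 lymphocyte and 4 of 6 macrophage markers were lower than in the other strains, and with the acinar sum as a covariate the Iapp difference was 0.14 (adjusted p = 0.0796). Neither call in AJ passed with scaling on the beta cell list (Ins2 0.13, adjusted p = 0.125, and Iapp 0.05, adjusted p = 0.547) or with sums of each sample (adjusted p = 0.336 and 0.236). B6 was higher for Iapp, by 0.26 ± 0.06 (adjusted p = 0.0001307), where 53.2% passed, and CAST for Iapp, by 0.16 ± 0.07 (adjusted p = 0.03207), where 57.7% passed. Both calls for Iapp ended with total-count scaling, where the differences were 0.17 in B6 (adjusted p = 0.188) and 0.03 in CAST (adjusted p = 0.852), and with scaling on the beta cell list, where they were 0.02 (adjusted p = 0.748) and 0.03 (adjusted p = 0.751). They also ended with sums of each sample (0.26, adjusted p = 0.243, and 0.16, adjusted p = 0.436), and the call in CAST with the lymphocyte covariate (0.09, adjusted p = 0.293). In B6 all 9 lymphocyte markers tested, 6 of 6 stromal, 4 of 4 endothelial and 4 of 6 macrophage markers were lower and 5 of 9 acinar markers higher. In CAST all 9 acinar markers were higher, and 5 of 9 lymphocyte, 5 of 6 macrophage, 4 of 6 stromal and 4 of 4 endothelial markers were lower.

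NZO, an obese strain, had the highest Iapp, at 416, 404, 409 and 487 k normalized counts in its 4 libraries. Its difference from the other strains was 0.42 ± 0.11 for Iapp (adjusted p = 0.001555, edgeR; with total-count scaling 0.43, adjusted p = 0.114), and neither insulin gene passed, where 34.2% of all genes did. Other markers moved in the same libraries: 4 of 5 ductal (list median 1.58), 4 of 6 stromal (1.17), 3 of 4 endothelial (0.36) and 3 of 6 macrophage markers (0.82) were higher, and 4 of 5 hormones of other islet cells were lower (-1.35). Their part in the Iapp level was not tested. In 129, 0 of 3 hormones passed, where 48.9% of all genes did. The differences of 129 were -0.04 for Ins1, 0.03 for Ins2 and 0.01 for Iapp, with unadjusted p-values of 0.666, 0.785 and 0.875. In single pairs 129 was nevertheless lower than 4 of 7 strains for Iapp and higher than 2. For Ins1 it was lower than 1 strain and for Ins2 higher than 1, where 50.3% of all such tests passed.

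In the order of fitted levels, few neighbouring strains could be told apart. For Iapp the order was NZO, WSB, AJ, B6, CAST, 129, NOD and PWK, and 129 and NOD were the only neighbours that differed, by 0.56 ± 0.10 (SE, log2; adjusted p = 9.868e-07, edgeR). For Ins2 the order was WSB, AJ, B6, NZO, CAST, 129, NOD and PWK, and for Ins1 it was WSB, NZO, AJ, CAST, 129, PWK, B6 and NOD. In neither were 2 neighbours distinguishable, with adjusted p-values from 0.0675 to 0.99.

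**Figure D4:**
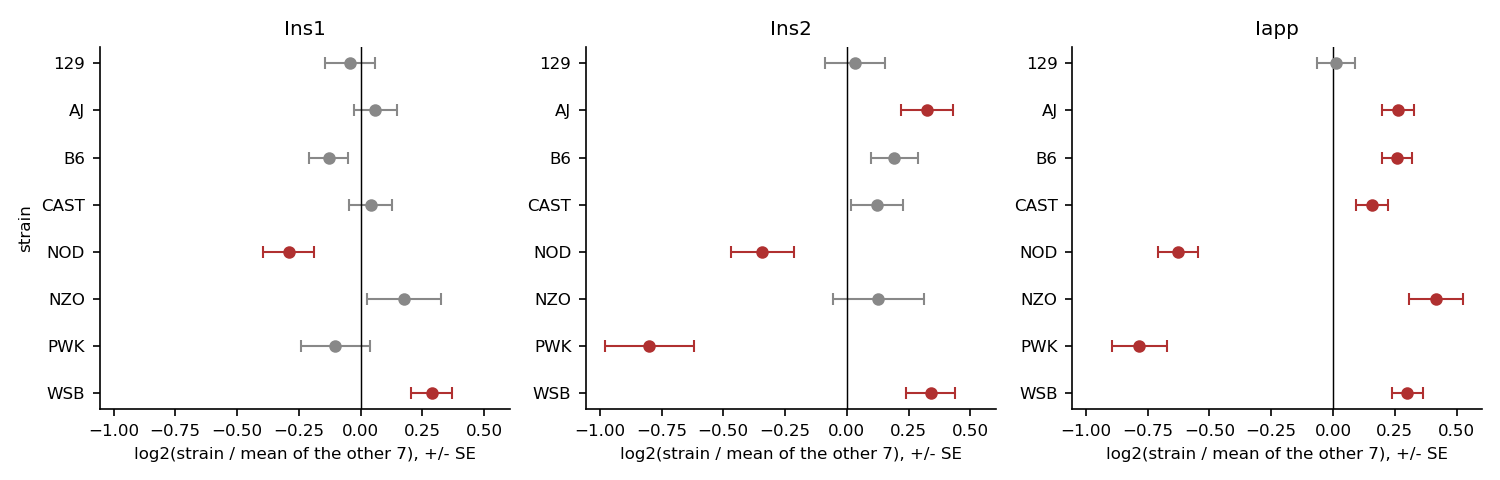
Difference of each strain from the mean of the other 7 on the log2 scale (horizontal axes) for Ins1, Ins2 and Iapp, with bars of 1 SE. Red points passed an adjusted p of 0.05 and grey points did not. For PWK, Ins2 and Iapp lie near -0.8 and Ins1 lies near 0.

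The ratio of one hormone to another within a library removes what changes all 3 together, such as the share of beta cells. Ins1 stood at 16.5% ± 2.99 of Ins2 in TPM (SD, n = 91 libraries). In the 5 PWK libraries it stood at 25.7%, 25.1%, 26.7%, 27.001% and 27.1%, whereas in the other 86 libraries it ran from 12.7% to 21.7%. PWK thus lay apart from every library of every other strain. Its ratio was higher than that of each of the 7 strains, by 0.54 (NOD) to 0.90 (B6) on the log2 scale, with adjusted p-values from 0.000369 to 0.0294 (exact two-sided permutation tests, adjusted over 87 tests). With 5 PWK libraries against the 4 of NZO, the smallest p such a test can reach is 0.0159, which it did. With any one library of NZO or PWK left out, the 2 strains still did not overlap, but the smallest p their test can reach was then 0.02857 or 0.03571, and with adjusted p-values from 0.05289 to 0.06905 it did not pass. The other 6 strains passed in each case. By expected counts the same ratio was 66.7% ± 2.23 in PWK and 40.5% ± 4.74 elsewhere. CAST, also wild-derived, had 16.5% ± 1.97 (n = 14). Reads of all strains were quantified against the reference genome of B6, and the part of sequence differences between strains in the ratio was not tested.

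AJ and B6 had the least Ins1 for their Ins2, at 14.6% ± 0.698 (n = 14) and 14.2% ± 0.894 (n = 18). Each was lower than 6 of the other 7 strains and they did not differ from each other beyond their spread (adjusted p = 0.149, permutation test). In all, 19 of 28 pairs of strains differed in this ratio, and the libraries of 10 pairs did not overlap. The between-strain difference also held within AJ, B6, CAST and WSB alone (adjusted p = 8.4e-05, permutation test) and within 129, NOD, NZO and PWK alone (adjusted p = 0.000105).

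Iapp stood at 5.85% ± 0.763 of Ins2 in TPM and varied less between strains. It ran from 5.21% ± 1.11 in NOD (n = 10) to 7.19% ± 1.01 in NZO (n = 4), and 7 of 28 pairs differed (adjusted permutation p under the 0.05 threshold), 5 of them with NZO. The libraries of no pair were apart. The 4 NZO libraries had 5.98%, 8.12%, 6.76% and 7.91%. The count of pairs rests on 2 of these libraries, since without the second or without the fourth 3 pairs passed. PWK had 5.80% ± 0.687, close to 129 and WSB. Iapp relative to Ins1 was lowest in PWK, at 22% ± 2.21, and in NOD, at 28.5% ± 3.78, and highest in B6, at 43.1% ± 4.24, and 18 of 28 pairs differed.

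**Figure D5:**
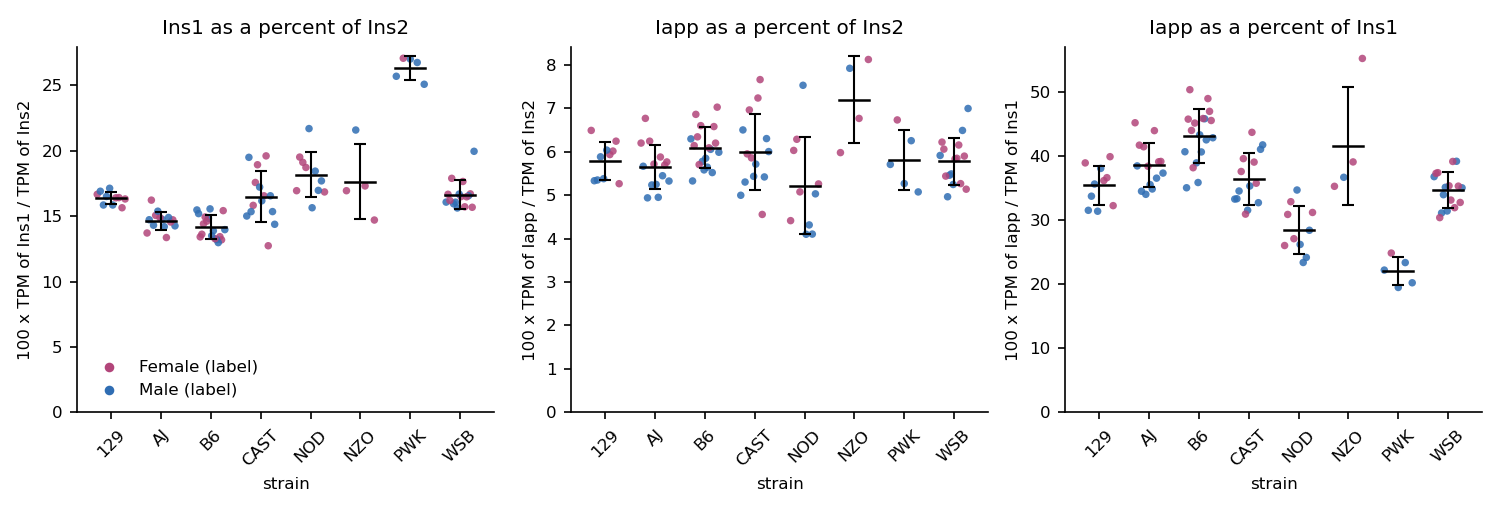
TPM of one hormone as a percent of another (vertical axes) by strain, 1 point per library coloured by labelled sex, with mean ± SD. The 5 PWK libraries lie between 25.1% and 27.1% for Ins1 over Ins2, above the 86 other libraries, whose highest is 21.7%, while for Iapp over Ins2 they lie among the other strains.

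None of the 3 genes passed the test between the sexes over all libraries, but the insulin genes did in some settings. Over all libraries with strain in the model, the difference between males and females was 0.16 ± 0.06 (SE, log2) for Ins1 (adjusted p = 0.152, edgeR), 0.16 ± 0.08 for Ins2 (adjusted p = 0.303) and 0.03 ± 0.05 for Iapp (adjusted p = 0.837), so 0 of the 3 passed, where 4.01% of all genes did. The unadjusted p-values were 0.0124, 0.0476 and 0.543. Without the 12 libraries whose sex markers went against the label, the difference was 0.22 for Ins1 (adjusted p = 0.008724) and 0.22 for Ins2 (adjusted p = 0.0339), both past the threshold, and 0.07 for Iapp (adjusted p = 0.361). Ins1 also passed by limma-voom (adjusted p = 0.0433) and by DESeq2 (adjusted p = 0.0143).

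By strain, the labelled males had more Ins1 than the females in 129, AJ, B6, CAST and NOD, by 0.13 to 0.35 on the log2 scale, and less in WSB, by -0.18. Sex markers went against the label in 6 of the 10 libraries of 129, 4 of the 16 of WSB and 2 of the 10 of NOD, so these directions hold for the labels only. Of the 18 tests of a gene within a strain none passed, where 2.04% of such tests passed over all genes, with unadjusted p-values under 0.05 for Ins1 in B6 alone. That difference was 0.35 ± 0.13 (adjusted p = 0.0807, edgeR). Without the libraries opposite to their sex label it was again 0.35 and passed (adjusted p = 0.0287), as did 1617 of 15204 genes. With total-count scaling Ins1, Ins2 and Iapp passed in B6 (0.74, 0.71 and 0.54, adjusted p = 0.0004345, 0.001497 and 0.005715), as did 9207 genes. Iapp also passed in NOD with that scaling (-0.53, adjusted p = 0.0446), as did 6652 genes. In B6, Ins1 ran from 0.858 to 1.08 M normalized counts in the 9 females and from 1.14 to 1.49 M in the 9 males, with no overlap. How many of all genes separate in this way was not computed. The acinar sum moved with Ins1, with a median of 3.65 M in B6 females and 0.387 M in B6 males, and its part in the difference was not tested. In AJ, the 7 females ran from 1.12 to 1.27 M and the 7 males from 1.27 to 1.43 M, with the highest female just above the lowest male. In WSB the labelled females had a mean of 1.52 ± 0.232 M (n = 9) and the labelled males 1.34 ± 0.0883 M (n = 7). Of these, 2 females and 2 males had sex markers opposite to their label, and without them the means were 1.45 ± 0.218 M and 1.31 ± 0.0791 M. The test of whether the sex difference varied between strains did not pass for Ins1 (adjusted p = 0.448), Ins2 (adjusted p = 0.662) or Iapp (adjusted p = 0.612), where 5.9% of genes passed. When libraries were scaled by their totals, as TPM is, it passed for all 3, with adjusted p-values of 0.002715, 0.006827 and 0.008351 (edgeR). With that scaling 9032 of the 15204 genes passed, so this did not set the hormones apart.

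Within most strains, the levels of the 3 hormones were correlated from library to library. Ins1 and Ins2 were correlated within each of the 6 strains with at least 10 libraries, with Pearson's r from 0.580 in CAST to 0.994 in NOD (6 of 6 with an adjusted permutation p under the threshold, over 54 relations). Their rho was from 0.490 to 0.964. In CAST the relation was the weakest (adjusted p = 0.0488, rho = 0.490), and r was 0.394 there without the 2 libraries farthest from the median, so it rested on those libraries. For Ins2 and Iapp, r ran from 0.328 in AJ to 0.970 in NOD, and 4 of 6 strains passed. Ins1 and Iapp gave r from 0.175 in AJ to 0.950 in NOD, and 5 of 6 passed. In CAST r of Ins1 and Iapp was 0.597 (adjusted permutation p = 0.0428), and 0.410 without the 2 farthest libraries. By rank neither this relation nor that of Ins1 and Ins2 passed in CAST (adjusted permutation p = 0.123 and 0.122 for rho). Since reads were divided between Ins1 and Ins2, their counts are not independent of each other.

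Acinar RNA went with less hormone RNA in B6 and, for some genes, in CAST and WSB, and with more insulin mRNA in NOD. In B6, r against the acinar sum was -0.878 for Ins1 (rho = -0.886), -0.842 for Ins2 (rho = -0.839) and -0.748 for Iapp (rho = -0.707), with adjusted permutation p-values of 0.000108, 0.000202 and 0.000405 over 18 libraries. Without the 2 farthest libraries these were -0.827, -0.776 and -0.688. The acinar sum of B6 also differed between the labelled sexes, with medians of 3.65 M in females and 0.387 M in males, and sex was not held fixed. In CAST, Ins1 (r = -0.578, rho = -0.530, adjusted permutation p = 0.0488, r = -0.383 without the 2 farthest) and Iapp (r = -0.711, rho = -0.626, adjusted permutation p = 0.0115) passed, and in WSB Iapp did (r = -0.629, rho = -0.715, adjusted permutation p = 0.0213). By rank Ins1 did not pass in CAST (adjusted permutation p = 0.0925 for rho) and did in WSB (adjusted permutation p = 0.048 for rho). In 129 and AJ none of the 3 genes passed. In NOD the relation had the other sign, with r = 0.701 for Ins1 (rho = 0.636) and 0.665 for Ins2 (rho = 0.648), with adjusted permutation p-values of 0.0338 and 0.0488 over 10 libraries and r = 0.843 and 0.824 without the 2 farthest. By rank neither passed (adjusted permutation p = 0.0925 and 0.0883 for rho). The 4 NOD libraries with the least acinar RNA had lymphocyte sums of 13889 to 44237, so that both kinds of marker moved with the relation. Whether these relations differ between strains was not tested.

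The genes around the hormones were followed as lists, whose counts are set beside the share of all genes tested that passed. Of 11 transcription factors that act on the insulin genes, 10 were lower in NOD and none higher, where 65.3% of all genes passed, 4492 of the 15204 being lower. The list median was -0.52 on the log2 scale against 0.03 for all genes tested. In the same NOD libraries the lymphocyte, macrophage, stromal and acinar markers tested were all higher (9, 6, 6 and 9), and their part in this and the other NOD counts below was not tested. Mlxipl, which encodes the glucose-responsive factor ChREBP, was lower in NOD by -0.99 (adjusted p = 2.076e-11, edgeR), and Rfx6, a factor of islet development, by -0.76. Mafa was the exception, at -0.003 in NOD (adjusted p = 0.984). It was lowest in NZO, by -1.14 (adjusted p = 2e-07), where the hormones were not low. In PWK, 1 factor was higher and 2 lower, where 45.1% of all genes passed. Nkx6-1, a keeper of beta cell identity, was higher there by 0.35 (adjusted p = 0.0109), and Neurod1, an activator of the insulin genes, was lower by -0.46 (adjusted p = 0.004791), as was Glis3, which binds the insulin promoter, by -0.34 (adjusted p = 0.0481). Pdx1 was at 0.23 in PWK (adjusted p = 0.282).

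Of 14 genes for prohormone processing and the secretory granule, 12 were lower in NOD and none higher (median -0.42), where 65.3% of all genes passed. In PWK 7 were higher and 4 lower (median 0.23, against 0.005 for all genes), where 45.1% of all genes passed, 3531 higher and 3322 lower. Of 5 hormones of other islet cells 3 were higher in PWK and 2 lower (median 0.89). Their part in this and the other PWK counts of these lists was not tested. Chga, the granule protein chromogranin A, was lower in PWK by -1.52 (adjusted p = 6.741e-18, edgeR), and Vgf, the precursor of several secreted peptides, by -3.15 (adjusted p = 6.761e-09). Scg2, secretogranin II, was higher there by 0.54 and Chgb, chromogranin B, by 0.40. Vgf was highest in NZO, by 2.59 (adjusted p = 1.123e-12). All 14 genes differed between strains, as did 97.4% of all genes.

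Of 8 genes for folding and export of the prohormones, 7 differed between strains, where 97.4% of all genes did. Ero1lb, the oxidoreductase that helps form the disulfide bonds of proinsulin, spanned 1.03 on the log2 scale from CAST to 129, followed by Sdf2l1 (0.57), Hspa5 (0.50) and Wfs1 (0.47), which act in the endoplasmic reticulum. In NOD 1 was higher and 1 lower (list median -0.04, against 0.03 for all genes), where 65.3% of all genes passed. Between the sexes, 3 of the 8 were higher in males, where 4.01% of all genes passed (313 higher and 296 lower), among them Ero1lb by 0.28 (adjusted p = 0.001606, edgeR) and Sdf2l1 by 0.27 (adjusted p = 0.005386).

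Of 8 genes of the glucose response, 6 were lower in NOD (median -0.37) and 4 in NZO (median -0.31), none being higher in either, where 65.3% of all genes passed in NOD and 34.2% in NZO, with all-gene medians of 0.03 and 0.01. In NZO 4 of 5 ductal, 4 of 6 stromal, 3 of 4 endothelial and 3 of 6 macrophage markers were higher. There 4 of 5 hormones of other islet cells were lower, and the part of these genes was not tested. In PWK, 2 were higher and 2 lower, where 45.1% of all genes passed. Glp1r, the receptor of the incretin GLP-1, was higher there by 0.68 (adjusted p = 7.307e-08, edgeR), and Ucn3, a peptide of mature beta cells, lower by -0.90 (adjusted p = 2.311e-07). Abcc8, a subunit of the ATP-sensitive potassium channel, was lower in PWK by -0.88, and Slc2a2, the glucose transporter of mouse beta cells, was lower in NZO by -1.03 (adjusted p = 1.689e-07).

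Of 9 genes for receptors, signalling and degradation of the hormones, 8 could be tested and 7 differed between strains, against 97.4% of all genes. Calcr, which encodes the core of the amylin receptors, was listed at a mean of 0.0245 TPM and did not pass the filters. Ramp1, a partner of that receptor, had the widest span, 2.66 from PWK to CAST. Irs2 spanned 1.41 from AJ to PWK, Irs1 1.37 from CAST to NOD and Ramp2 1.35 from NZO to B6. WSB had 6 of the 8 higher and none lower (list median 0.23, against -0.02 for all genes), where 56.2% of all genes passed, 4037 higher and 4509 lower. In WSB 3 of 4 endothelial markers were also higher (median 0.33), and their part was not tested.

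The hormones of the other islet cells had patterns of their own. All 5 differed between strains, as did 97.4% of all genes, Ghrl over 4.97 on the log2 scale, Sst over 3.34, Pyy over 2.20 and Gcg over 2.15. In PWK, Sst, somatostatin of the delta cells, was higher by 1.66 (adjusted p = 2.24e-22, edgeR), Pyy by 1.25 and Gcg, glucagon of the alpha cells, by 0.89 (adjusted p = 4.14e-05). In NZO, Sst was lower by -2.15 and Gcg by -1.48 (adjusted p = 2.028e-06). Gcg stood at a mean of 16887 TPM, against 20465 TPM for Iapp. Labelled females had more Gcg, Sst and Pyy than labelled males, where 4.01% of all genes differed between the sexes, by -0.43, -0.31 and -0.33 for males minus females (adjusted p = 0.001606, 0.000673 and 0.0155).

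In a coding of the strains after the scheme of the study, the strain means of log2 normalized counts were scaled from 0 to 1, B6 was subtracted, and differences beyond 0.2 were written as 1 or -1. Ins1 was at 1 in AJ, CAST, NZO and WSB and at -1 in NOD. Ins2 was at -1 in NOD and PWK and at 0 elsewhere, and Iapp was at -1 in 129, NOD and PWK. The value of 129 for Iapp was close to the cutoff, at -0.208, and at -0.249 on untransformed means, which gave the same codes for all 3 genes.

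The genes whose levels went most closely with the hormones over the 91 libraries were taken by Pearson's r, as a description across libraries that also differ in depth and tissue makeup. For Iapp these were Cpe, the carboxypeptidase that trims prohormones (r = 0.894), Ins2 (0.863), Sv2a (0.848), Atp1b1 (0.848) and Arpin (0.847). For Ins2 they were Iapp (0.863), Lhfpl4 (0.847), Cpe (0.844), Enho (0.823) and Pebp1 (0.823). For Ins1 they were Maged2 (0.805), Ntrk2 (0.784), Necab2 (0.780), Ins2 (0.773) and Gnptg (0.772). With strain means removed, Ins1 and Ins2 were closest to each other (0.903) and Atp6v0e2, a subunit of the proton pump, was closest to Iapp (0.840). With ranks in place of values, 2 of the 5 genes stayed for Ins2 and for Iapp, and all 5 for Ins1.

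Around the hormone genes, protein-coding neighbours starting within 100 kb were read as well, with 97.4% of all genes differing between strains. No such gene lay beside Ins1. Near Ins2, Igf2, the imprinted growth factor, stood at a mean of 2.52 TPM and spanned 2.74 on the log2 scale from 129 to PWK (adjusted p = 1.117e-14, edgeR). Near Iapp, Slco1a6 spanned 4.47 from WSB to PWK (adjusted p = 2.035e-39) and Recql 0.51 from 129 to PWK (adjusted p = 1.427e-08). Golt1b, a vesicle transport gene, was lowest in NOD (span 0.59) and Slco1a5 likewise (span 2.42), and Pyroxd1 did not pass (adjusted p = 0.0699).

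The length that the authors' quantification gave each gene, an average over its transcripts, varied little. It was 1016 bases for Ins1 in every library, 459.68 to 461.59 bases for Ins2 and 828.84 to 838.14 bases for Iapp. For Ins2 the mean was highest in CAST, at 461.0 ± 0.506 bases (SD, n = 14), and in PWK, at 460.9 ± 0.438 (n = 5). Because the Ins1 length is greater than that of Ins2, the ratio of Ins1 to Ins2 is smaller in TPM than in counts.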

How the data were processed

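Whole-islet RNA-seq libraries of 8 strains were quantified by the authors with RSEM against mm10 and GENCODE M18 (RSEM version not given in the sources used here). Of the deposited tables, expected counts per gene, TPM and the effective and full transcript length per gene were used, for 91 libraries. Groups came from the strain and sex labels. Genes were matched to GENCODE M21 (54079 of 54146). Following the study, protein-coding genes of chromosomes 1 to 19 and X were kept, the lowest 10% by variance and genes at 0 in more than 15% of libraries were dropped, and expected counts, rounded to whole numbers, were scaled by the upper quartile. A floor of 3 counts corresponds to 0.0852 to 0.177 CPM.

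Strain, sex and their interaction were tested with edgeR 4.0.16 (quasi-likelihood, strain and sex in the model, adjusted over 15204 genes). The interaction was fitted in the 6 strains with at least 10 libraries. Ratios were compared by two-sided permutation tests on log2 TPM ratios (exact with under 10 libraries, otherwise 100000 resamples, SciPy 1.17.1) and relations within strains by permutation of 100000 pairings, on log2 counts with a pseudocount of 1. Tests were first run on simulated counts. For each list, up to 4 genes that passed with the widest strain spans are named, beside genes chosen after their values were seen (Pdx1, Nkx6-1, Scg2 and others that describe NOD or PWK). The members and lists were chosen with earlier results of these data known. Alternatives were TMM, median-ratio, total and beta cell list scaling, other filters, limma-voom 3.58.1, DESeq2 1.42.0 with its own size factors, covariates for marker sums, sums per sample and fits without single libraries. Fits without NOD, without PWK and over 4 strains, the interaction with total scaling and the strain coding on untransformed means were chosen after seeing the data. The level of 1 lymphocyte marker is not reported here.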

Additional observations from a re-analysis of the deposited data

Results flagged for a closer look

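In NZO, the highest of 4 libraries for Iapp, the only male, had 486763 normalized counts and the next had 416258, a gap of 0.857 of the whole range of the strain, which is above Dixon's 95% critical value. Of the 40 groups of 4 to 10 libraries examined in this way, it was the only one, and chance gives about 1 in 20. Without this library NZO stayed above the mean of the other strains for Iapp.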

How the results depend on the processing

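Over 23 alternatives, the lower Ins2 and Iapp in PWK and the lower Iapp in NOD kept their direction and stayed past the threshold, Iapp in NOD at -0.1728 (adjusted p = 0.04339, edgeR) with scaling on the beta cell list. For NOD, the differences of Ins1 and Ins2 turned to 0.1263 and 0.0418 with scaling on the beta cell list and to 0.03657 and 0.09287 with the lymphocyte covariate. Of the 8 strains, 2 passed for Ins1, 4 for Ins2 and 7 for Iapp. With total-count scaling the counts were 1 for Ins1 and 3 for Iapp, with total-count scaling without the hormones 4 for Iapp, with the beta cell list 4 for Iapp, without the libraries opposite to their sex label 1 for Ins1, and with the lymphocyte covariate 1 for Ins1 and 2 for Ins2. The strain that passed for Ins1 with that covariate was neither NOD nor WSB, the 2 that passed in the main fit. With sums of each sample they were 0 for Ins1, 1 for Ins2 and 3 for Iapp. Of 28 pairs, Ins1 passed in 15 with the beta cell list, 10 with DESeq2, 2 without the opposite libraries, 2 with the lymphocyte covariate and 0 with sums of each sample, and Ins2 in 2 with those sums, a setting that has 16 values in place of 91. The strain span of Ins1 was 0.5716 and of Ins2 0.9868 with the sums (adjusted p = 0.592 and 0.1859, edgeR). Within AJ, B6, CAST and WSB it was 0.1893 for Ins2 and 0.1248 for Iapp, and there, with a term for the lower and the upper range of running numbers, 0.1991 and 0.1447. Within 129, NOD, NZO and PWK it was 0.4133 for Ins1 and 0.8129 for Ins2. The sex difference of Ins1 passed by limma-voom (0.1568), by DESeq2 (0.1603), without the opposite libraries (0.2194) and with the acinar covariate (0.1551), and that of Ins2 without the opposite libraries (0.2233). With total-count scaling the interaction had adjusted p-values of 0.002715, 0.006827 and 0.008351 (edgeR), where 9032 of the 15204 genes passed. The span of Iapp over Ins2 was 0.1096 within AJ, B6, CAST and WSB, and leaving out a library of NZO or PWK gave 3 to 8 pairs. By expected counts the shares were 11.16% for Ins2, 1.323% for Iapp and 17.05% for the sum, and a cutoff of 0.1 put 6 strains away from 0 for Ins2. Differences from the mean of the other 7 strains and pairs of strains were not run within these sets of strains. Except where a setting holds fewer samples, the cause was not tested. The share of all genes that passed under an alternative is not given here unless it stands beside the count. No paired analysis was possible because the labels carry no replicate numbers shared between groups.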
